A study of Mus musculus with 8 samples.

Results

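Most stretches of chromatin that carried H3K4me1 in mouse skeletal muscle carried no other mark or factor measured beside it. H3K4me1 is the mono-methylated form of lysine 4 of histone H3. Of the 75523 regions in the deposited H3K4me1 list, 48910 (64.8%) lay on chromosomes 1 to 19 and X, were under 10000 bases wide and shared not even 1 base with a peak of the other 5 lists, which are H3K27ac, H3K4me3, the glucocorticoid receptor (GR), RNA polymerase II (Pol2) and CTCF. These regions are called primed below, and the word stands for that rule alone. The chromatin came from skeletal muscle nuclei of wild-type (WT) C57/Bl6J mice aged 10 to 12 weeks, and all groups share this genotype, strain and age. ChIP-seq was done with 1 library for each of the 6 antibodies. Input1 served GR, H3K27ac, Pol2 and H3K4me1, and Input2 served CTCF and H3K4me3, the 2 input libraries. Without replicates, no value below has a spread between animals, and no p-value is given. The labels give a tissue, not a cell type: nuclei of fibres, satellite cells, vessels, connective tissue and nerve sheaths can all be present in such a preparation.

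The primed regions are set below against 3 other kinds of H3K4me1 region under 10000 bases wide. There were 6433 regions that met H3K27ac without H3K4me3, 14291 that met H3K4me3, and 3651 that met only GR, Pol2 or CTCF. A further 2238 regions of 10000 bases or more were left out, of which 228 met no other peak. The split rests on peak calls of single libraries of unknown read depth, and a weak peak missed in another list would leave a region among the primed ones.

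As background, H3K4me1 is deposited by the MLL3 and MLL4 methyltransferases (KMT2C and KMT2D) at enhancers and on the flanks of promoters. H3K27ac, made by the acetyltransferases p300 and CBP, is added where an enhancer or promoter is active, and H3K4me3 marks the start sites of genes. An enhancer with H3K4me1 and no H3K27ac is usually called primed: it can have been opened earlier in development, or wait for a signal. In muscle, the transcription factors MyoD and Myf5 bind short motifs called E-boxes in enhancers and open chromatin during myogenesis.

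Sequences from 8 primed regions show the kinds of DNA that the results turn on. The first set holds promoters of muscle genes that lay wholly inside a primed region, from RefSeq on build GRCm38, on the strand of the gene and reaching from 250 bases before the start to 50 after it. Capitals mark the E-box CAGCTG, a palindrome that MyoD binds. They are those of Chrna1, the alpha subunit of the muscle acetylcholine receptor (chr2:73580289-73580588, minus strand), of Tnnt2, the cardiac troponin T that embryonic skeletal muscle also makes (chr1:135836084-135836383, plus strand), and of Chrne, the adult epsilon subunit of the receptor, made under the neuromuscular junction (chr11:70619145-70619444, minus strand). They were chosen after their values were seen.
Chrna1: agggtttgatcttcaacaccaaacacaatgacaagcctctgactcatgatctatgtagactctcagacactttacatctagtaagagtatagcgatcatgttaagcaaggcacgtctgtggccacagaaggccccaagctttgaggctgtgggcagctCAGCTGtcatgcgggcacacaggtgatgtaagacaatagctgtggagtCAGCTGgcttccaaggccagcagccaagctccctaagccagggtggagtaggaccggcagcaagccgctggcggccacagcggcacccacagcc
Tnnt2: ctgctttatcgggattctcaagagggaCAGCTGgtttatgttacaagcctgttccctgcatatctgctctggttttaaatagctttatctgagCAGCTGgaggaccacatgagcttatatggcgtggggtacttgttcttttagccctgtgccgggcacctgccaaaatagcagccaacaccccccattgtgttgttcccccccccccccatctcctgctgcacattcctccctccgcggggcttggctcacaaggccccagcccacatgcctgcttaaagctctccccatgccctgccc
Chrne: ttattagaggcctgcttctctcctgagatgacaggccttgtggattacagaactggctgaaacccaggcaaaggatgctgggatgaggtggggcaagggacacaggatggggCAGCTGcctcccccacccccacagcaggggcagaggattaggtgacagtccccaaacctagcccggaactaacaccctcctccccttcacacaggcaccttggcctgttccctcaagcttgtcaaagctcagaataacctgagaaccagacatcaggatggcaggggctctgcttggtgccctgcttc

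The second set holds promoters of nerve cell genes, also wholly inside a primed region, in which capitals mark the dinucleotide CG. Gad1 makes the enzyme that forms the transmitter GABA (chr2:70561879-70562178, plus strand), and Syn1 makes the synaptic vesicle protein synapsin (chrX:20920869-20921168, minus strand). Gad1 has 21 CG dinucleotides and no CAGCTG in these bases, and Syn1 has 33 and none, against 7 CG dinucleotides at Chrna1, 5 at Tnnt2 and 1 at Chrne. These too were chosen after their values were seen.
Gad1: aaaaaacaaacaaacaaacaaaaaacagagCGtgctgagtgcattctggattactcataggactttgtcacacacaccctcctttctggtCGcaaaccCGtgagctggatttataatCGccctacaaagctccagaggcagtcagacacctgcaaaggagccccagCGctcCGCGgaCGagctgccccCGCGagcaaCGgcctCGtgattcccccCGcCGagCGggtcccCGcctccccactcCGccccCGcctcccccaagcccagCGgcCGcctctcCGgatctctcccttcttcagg
Syn1: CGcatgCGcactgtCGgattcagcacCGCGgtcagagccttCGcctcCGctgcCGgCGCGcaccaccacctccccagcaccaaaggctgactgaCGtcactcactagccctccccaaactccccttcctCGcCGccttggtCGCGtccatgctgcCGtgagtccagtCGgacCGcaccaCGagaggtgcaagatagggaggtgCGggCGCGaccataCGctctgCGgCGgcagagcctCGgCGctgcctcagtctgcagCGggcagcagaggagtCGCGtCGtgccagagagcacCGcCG

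The third set holds the central 300 bases of primed regions, on the plus strand of GRCm38, with CAGCTG again in capitals where it occurs. One is the region over the start of Myf5, an early myogenic transcription factor (chr10:107486158-107486457). Another is the region 2860 bases into Myh3, the embryonic myosin heavy chain (chr11:67081010-67081309). The last comes from the longest chain of primed regions, in the transcription factor gene Sox6 (chr7:115578038-115578337). Of the 27 centres in that chain, 6 hold CAGCTG, and the first of these along the chromosome is printed, with 1 match. The Myf5 and Myh3 centres hold no CAGCTG. Nor do the centres of the primed regions nearest Pax7, Tbx15 and Snap25, which were picked by the same rule.
Myf5: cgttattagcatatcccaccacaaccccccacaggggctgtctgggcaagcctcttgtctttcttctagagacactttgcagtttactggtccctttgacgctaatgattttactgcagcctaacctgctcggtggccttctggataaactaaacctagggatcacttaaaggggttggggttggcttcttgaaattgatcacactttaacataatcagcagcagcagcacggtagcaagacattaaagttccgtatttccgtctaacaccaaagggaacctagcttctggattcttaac
Myh3: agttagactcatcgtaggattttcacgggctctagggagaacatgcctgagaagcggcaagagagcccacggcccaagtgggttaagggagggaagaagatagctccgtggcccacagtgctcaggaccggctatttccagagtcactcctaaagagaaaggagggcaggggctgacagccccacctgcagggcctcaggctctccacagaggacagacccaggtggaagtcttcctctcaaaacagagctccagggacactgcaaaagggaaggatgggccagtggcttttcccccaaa
Sox6 chain region: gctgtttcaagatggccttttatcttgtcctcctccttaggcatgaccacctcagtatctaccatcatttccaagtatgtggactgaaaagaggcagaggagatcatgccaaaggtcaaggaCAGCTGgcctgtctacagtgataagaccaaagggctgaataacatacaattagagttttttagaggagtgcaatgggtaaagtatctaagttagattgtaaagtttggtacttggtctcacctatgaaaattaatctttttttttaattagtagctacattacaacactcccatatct

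Primed regions were narrow. Their median width was 1054 bases, with quartiles of 597 and 1853 bases, against 3172 bases for regions with H3K27ac, 1963 for those with H3K4me3 and 1641 for those with GR, Pol2 or CTCF only. Of the primed regions, 9291 (19%) were under 500 bases wide and 2661 (5.44%) reached 4000 bases, while 37.3% of the H3K27ac regions did. Primed regions made up 64.8% of the rows and covered 72.1 Mb, which is 39.6% of the bases under H3K4me1. Among all H3K4me1 regions under 500 bases, 86.5% were primed, and the share was 80.7% from 500 to 1000 bases, 70.0% up to 2000, 52.0% up to 4000 and 32.0% above that. A wider region has more room to meet another peak, so the rule itself favours narrow members, and the part this has in the difference was not tested. The H3K4me1 list holds positions without a score, so width is the one measure of a peak's size.

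**Figure D1:**
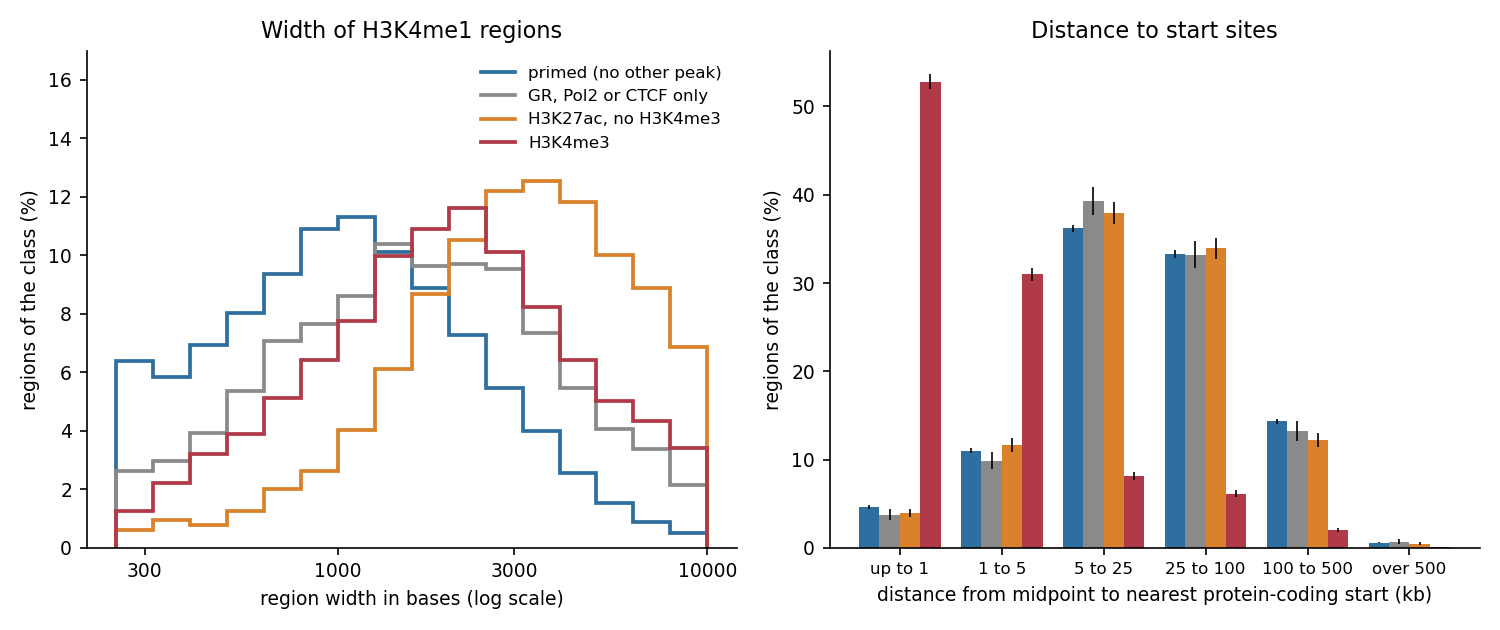
Left, the share of each class of H3K4me1 region (in %) by width in bases on a log axis, in steps of 0.1 log10 units. Right, the share by distance from the region's midpoint to the nearest protein-coding start, with exact 95% intervals as bars; the primed curve peaks to the left of the others, and the primed bars lie near those of H3K27ac regions, with 36.2% against 37.9% at 5 to 25 kb.

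The widest members reached the limit of the rule and all lay in introns. The region with the greatest width, 9988 bases (chr3:136763813-136773800), sat in an intron of Ppp3ca, the catalytic subunit of the calcium-activated phosphatase calcineurin, 98037 bases from the nearest start. The next widest lay in Dedd2, a death-effector-domain protein gene (9984 bases), in Myt1l, a neuronal transcription factor gene (9974 bases), in Rgl1 (9967 bases) and in Zdhhc14, a palmitoyltransferase gene (9943 bases). The list of 10 closed with regions in Ppp2r5e, Sik3, Mbnl1, Pgs1 and Ppfibp1, at 9932 to 9900 bases. Sik3 is a salt-inducible kinase, and Mbnl1 is the splicing factor whose sequestration underlies myotonic dystrophy. The nearest row without another peak beyond the limit was 10003 bases wide.

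At the other edge of the rule, 10 members touched a peak of another list without sharing a base. Another peak lay within 100 bases of 825 members (1.69%) and within 1 kb of 2445 (5.00%). Just outside the rule, 5 regions shared exactly 1 base with another peak and 1262 shared 100 or fewer.

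The label distal held for most members but not for all. The midpoints of 46647 primed regions (95.4%, exact 95% interval 95.2 to 95.6%) lay over 1 kb from every annotated start of a protein-coding transcript, and 2263 (4.63%) lay within 1 kb of one. Starts of non-coding transcripts of the same genes were not used. With all widths together, H3K27ac regions had nearly the same share, 96.1% (95.6 to 96.5%), and regions with H3K4me3 had 47.2%. At like width the shares differed among narrow regions. Under 500 bases they were 94.0% of primed and 64.9% of 151 H3K27ac regions, and from 500 to 1000 bases 94.9% and 86.4%. From 1000 to 2000 bases they were 95.9% and 95.6%, and in the wider steps the H3K27ac share was the higher. The median distance to a start was 23444.5 bases for primed regions, 22138 bases for H3K27ac regions and 918 bases for regions with H3K4me3. Only 273 primed regions (0.558%) lay over 500 kb from any start, the farthest at 2120293 bases. These intervals cover counting error only, taking regions as independent, which neighbouring regions are not.

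Introns held 27708 primed regions (56.7%, 56.2 to 57.1%), exons held 2602 (5.32%) and intergenic sequence held 16337 (33.4%). Of the H3K27ac regions, 51.1% were in introns (49.9 to 52.3%) and 40.4% were intergenic, and of the regions with GR, Pol2 or CTCF only, 43.7% were in introns. The intron share of primed regions grew with width, with 49.3% under 500 bases, 52.4%, 56.7% and 65.2% in the steps between, and 77.9% from 4000 bases. H3K27ac regions showed the same order at lower levels, with 21.2% in the narrowest step and 61.1% in the widest.

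Primed regions lay away from other peaks by a median of 12408 bases, with quartiles of 5175 and 29197 bases. Another list's peak was within 5 kb of 11811 of them (24.1%, 23.8 to 24.5%), within 25 kb of 34650 (70.8%) and within 100 kb of 46447 (95%). The peak nearest to a primed region was most often H3K4me3 (37.8%), then H3K27ac (31.1%), GR (18.5%), CTCF (11.5%) and Pol2 (1.06%). The lists differ in length and overlap each other, which bears on this ranking, and a tie that included H3K4me3 was counted for it. By median gap the order was another. H3K27ac was closest at 19813.5 bases, then GR at 23050.5, H3K4me3 at 28619.5, Pol2 at 42072.5 and CTCF at 88257.5. The 2463 primed regions over 100 kb from any other peak were narrower, with a median of 815 bases, and 51.5% of them were intergenic.

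Primed regions stood close to other H3K4me1 regions. The nearest H3K4me1 neighbour was a median of 3473 bases away, and within 5 kb for 61.6% of them, against 75.7% of H3K27ac regions. No primed, H3K27ac or H3K4me3 region had an H3K4me1 neighbour closer than 1065 bases. For 69.0% of primed regions (68.5 to 69.4%) the nearest neighbour was itself primed, beside a primed share of 64.8% in the whole list. Linked at gaps of up to 50% of the 25 kb window used for genes below, with no other kind of H3K4me1 region between, the members formed 26309 chains. Of these, 15885 were single regions (32.5% of members), and 173 chains held 10 or more regions, with 2178 members (4.45%).

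The longest chains each lay within 1 gene. In Sox6, which encodes a repressor of slow-fibre genes in muscle, 27 primed regions ran over 170.06 kb (chr7:115574410-115744469) and covered 42.9% of it. Gnaq, a G protein alpha subunit gene, held 26 over 173.852 kb, and Etv6, an ETS-family repressor gene, held 24 over 129.138 kb. Dip2b held 23 over 139.486 kb and Plcl2, a phospholipase C-like protein gene, held 21 over 121.138 kb. No peak of the other 5 lists lay anywhere in the spans in Sox6, Gnaq, Etv6 and Plcl2, and 1 H3K27ac peak lay between the regions in Dip2b. This is largely set by how members and chains were defined.

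Density varied by chromosome. There were 19.1 primed regions per Mb of sequenced bases overall. The autosomes ran from 15.1 per Mb on chromosome 3 to 27.6 on chromosome 11, and X had 5.35. On X the primed share of H3K4me1 rows was 71.3% (874 of 1225), and H3K27ac regions without H3K4me3 stood at 0.398 per Mb there, against 1.89 to 4.37 on the autosomes. The labels do not give the animals' sex.

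Of 21670 protein-coding genes, 13706 (63.2%) had the midpoint of a primed region within 25 kb of a start. Genes with an H3K4me3 peak within 1 kb of a start had one in 77.9% of cases, with a mean of 2.21 regions per gene, and genes without H3K4me3 in 39.9%, with a mean of 0.911. Where Pol2 was at the start as well, the share was 81.7% of 10121 genes. Of the genes with the most primed regions within 25 kb of any of their starts, Foxp1, a forkhead repressor gene, had 34 of 44 H3K4me1 regions primed, and Fyn, a Src-family kinase gene, had 26 of 29. Psd3 had 24 of 33. Mef2c, which encodes a muscle transcription factor that acts with MyoD, had 23 of 27, and Pde4d, a cyclic AMP phosphodiesterase gene, had 23 of 33. Ank3, Sox6, Tcf4, Ablim1 and Rere had 20 or 21 each. Genes with more or more widely spaced starts have more room for regions, and the count is not scaled to it.

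The muscle genes did not share 1 pattern. Primed regions lay within 25 kb of all 13 embryonic and denervation-induced muscle genes, all 11 slow sarcomere genes, all 12 neuromuscular junction genes and all 14 housekeeping genes, beside 63.2% of all genes and 77.9% of genes with H3K4me3. They lay near 14 of 15 myogenic and muscle transcription factor genes and 15 of 22 fast or common sarcomere genes (68.2%). Near the fast or common sarcomere genes, 45 of 167 H3K4me1 regions counted were primed (26.9%), beside 64.8% of the whole H3K4me1 list. That 64.8% is no like baseline, as it covers regions at any distance from a start. The list counts cover midpoints within 25 kb of a start, summed over genes. Of all regions under 10000 bases, 2263 of 10198 within 1 kb of a start were primed. From 1 to 5 kb it was 5385 of 10916, and from 5 to 25 kb 17702 of 22733. The primed share was 66.1% near the embryonic and denervation-induced genes and 54.4% near the slow ones. H3K4me3, which the rule removes, lay at 20 of 22 fast or common, 5 of 13 embryonic and 5 of 11 slow genes. Lists with H3K4me3 at every gene were low as well. They had 32.9% for glucose and glycogen, 38.3% for housekeeping, 41.1% for GR targets, 41.3% for fatty acid and 42.2% for atrophy genes. The part of the rule in these differences was not tested. Among lists of other cells, the 71.4% near liver genes and the 69.0% near endothelial genes stood above the embryonic value. The rest stood below it, with 63.3% near neuron, 63.2% near olfactory receptor, 54.5% near Schwann and 53.7% near adipocyte genes. Immune (48.6%), fibro-adipogenic and fibroblast (44.4%) and satellite cell genes (40.4%) were lower still. The GR targets had one near 12 of 17 and the liver genes near 6 of 13 (46.2%). Olfactory receptor genes, best known from sensory neurons of the nose, had one near 60 of 1133 (5.30%). Within the lists, the genes with the most primed regions included Utrn of the neuromuscular junction (14 of 17 H3K4me1 regions), the GR target Sgk1, a kinase gene (16 of 22), and the Z-disc gene Actn2 (10 of 15). Neb, the gene of the thin-filament ruler nebulin, had 9 of 25, and Eya1, a transcriptional cofactor gene of early muscle, had 9 of 11. Hoxd9 had 7 of 12, Acsl1, which activates fatty acids, 7 of 11, and the neuron gene Rbfox3 8 of 10. In the liver list the highest was Apoa1, of high-density lipoprotein, with 4 of 6. These lists were not tested against each other, and their exact intervals are wide, from 75.3 to 100% for 13 of 13 and from 19.2 to 74.9% for 6 of 13.

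**Figure D2:**
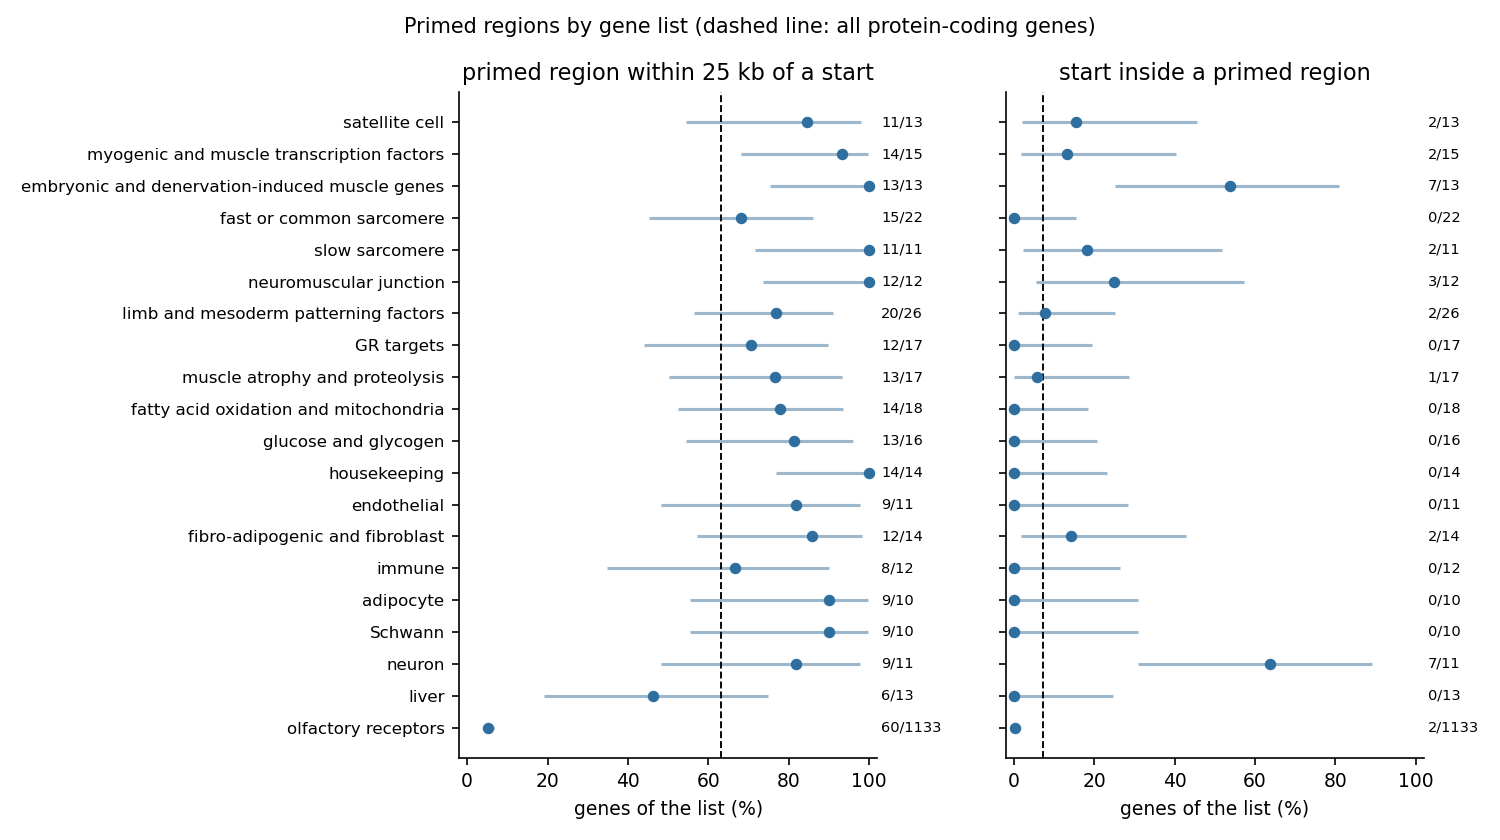
Share of each gene list (in %) with a primed region within 25 kb of a start (left) and with a start inside a primed region (right). Points are shares, bars are exact 95% intervals, numbers at the right are genes of the list, and the dashed lines stand at 63.2% and 7.33% for all genes; the neuron and embryonic lists lie to the right of the line in the right panel.

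The tissue label was checked against marker genes, beside all genes, of which 13310 of 21670 had H3K4me3 within 1 kb of a start and 46.9% had Pol2. H3K4me3 lay within 1 kb of a start in 20 of 22 fast or common sarcomere genes, and Pol2 in all 22. Of the markers of other cells, H3K4me3 was present at 10 of 11 endothelial, 12 of 14 fibro-adipogenic and fibroblast, 11 of 13 satellite cell, 6 of 10 Schwann, 4 of 10 adipocyte, 4 of 12 immune, 1 of 11 neuron and 1 of 13 liver genes. Pol2 was present at none of the 11 neuron genes. Chromatin from a mixture of nuclei cannot tell few nuclei with a strong mark from many with a weak one.

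Counts around single genes differed within roles as well as between them. Pax7, the satellite cell factor, had 2 primed regions among 5 H3K4me1 regions within 25 kb, and Pax3, its paralogue, had none among 5, with the nearest primed region 39907 bases from a start. Myf5 had 5 of 6, one of them over its start (chr10:107485636-107486980, 1345 bases), and none of H3K4me3, H3K27ac and Pol2 there. Myod1 had 1 of 4 and Myog 3 of 7, and both carried H3K27ac within 1 kb of their starts.

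The myosin cluster on chromosome 11 held genes of 3 ages of muscle. Myh3, the embryonic myosin, had 4 of 4 H3K4me1 regions primed, with the nearest in an intron 2860 bases from the start. Myh8, the perinatal myosin, had 2 of 2, and the nearest primed midpoint was 324 bases from its start. Myh4, the myosin of the fastest adult fibres, had 0 of 2 and carried H3K4me3, H3K27ac and Pol2, whereas Myh3 and Myh8 carried none of these. These counts hang on the 25 kb window. The primed region nearest Myh4 was 25410 bases away and counted for Myh8 only. An H3K27ac region 21.597 to 29.865 kb past the 5' end of Myh3 was not counted, as its midpoint lay outside. The rule also removes regions that meet the marks Myh4 carried. Chrng, the fetal gamma subunit of the acetylcholine receptor, had 2 of 5 and no such peak at its start. Ckm, muscle creatine kinase, had 2 of 4 and all 3 peaks.

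Among patterning and regulatory genes, Tbx15, a limb and fibre-type factor, had 9 of 12 primed, Runx1, induced in denervated muscle, had 6 of 7 and Meis2 had 1 of 3. Among genes of other cells, Pecam1 of endothelium had 6 of 6, Pdgfra of fibro-adipogenic progenitors 1 of 3 and Pparg of adipocytes 1 of 2. Ptprc of leukocytes, Snap25 of neurons and Alb of hepatocytes had no H3K4me1 region of any kind within 25 kb. The GR target Fkbp5 had 6 of 14 and the housekeeping gene Actb 2 of 6.

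**Figure D3:**
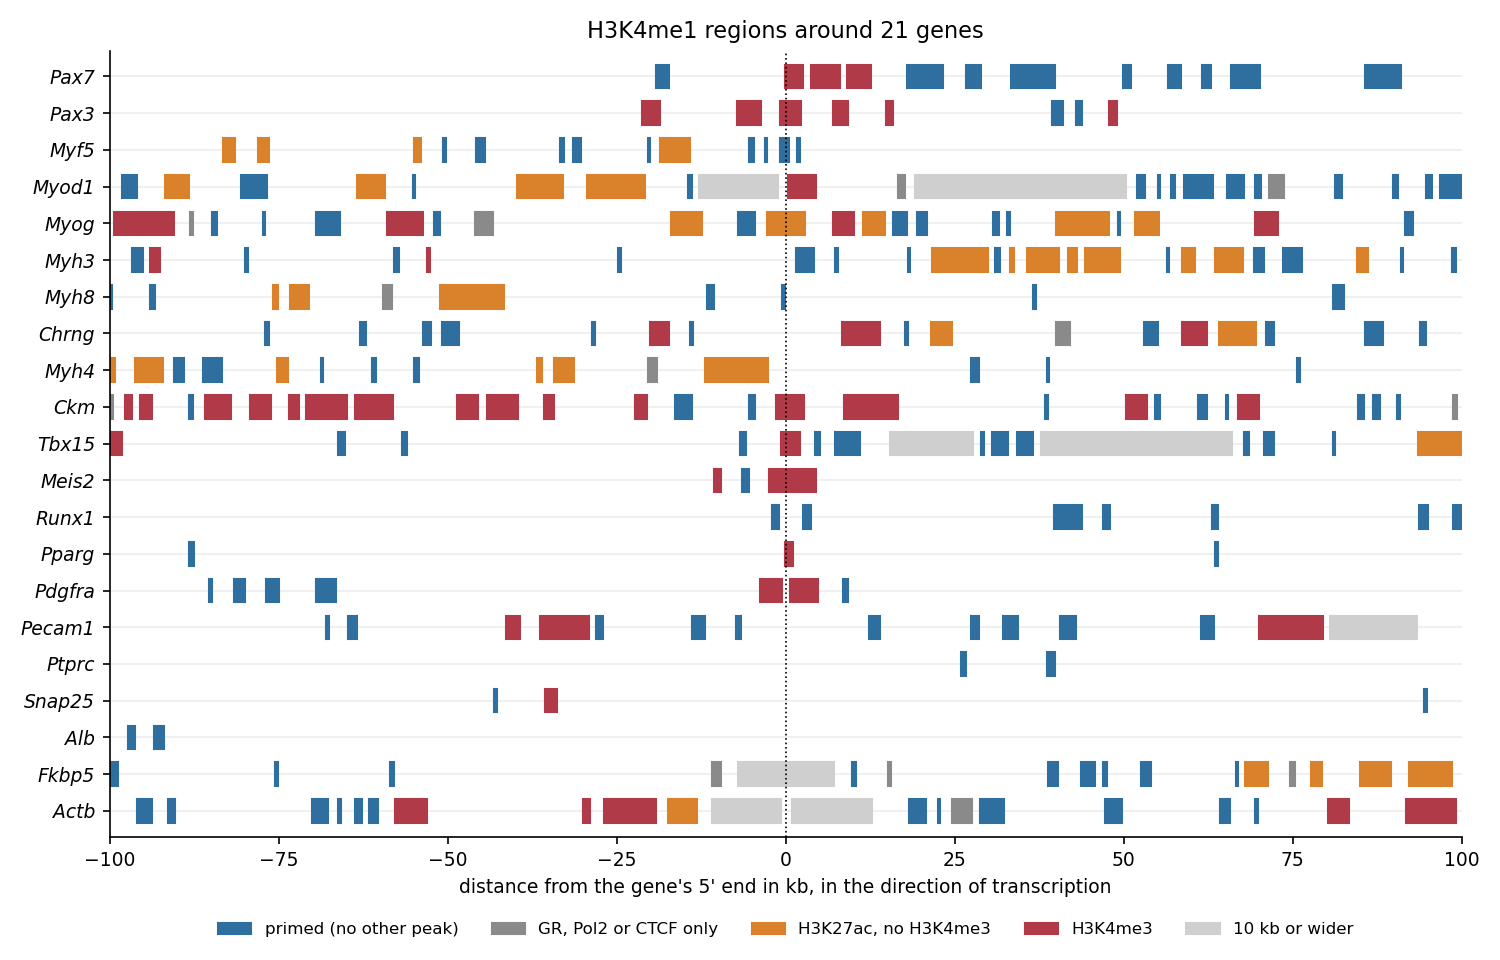
H3K4me1 regions around 21 genes, from 100 kb before to 100 kb after the 5' end of each gene in its direction of transcription, in kb. Each block is a region coloured by class, and primed blocks lie over the start of Myf5 and just before that of Myh8, while Ckm and Fkbp5 have blocks of other classes or 10 kb and wider at theirs.

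A minority of genes had a start site inside a primed region. There were 1589 of them (7.33% of all protein-coding genes), in 1653 primed regions. The rule bars a region that meets H3K4me3, so a gene with that mark at its start could have a start inside only by another start or by a narrow gap. It had one in 605 of 13310 cases (4.55%). Among the 8360 genes without H3K4me3 the count was 984 (11.8%, exact 95% interval 11.09 to 12.48%). The share of all genes depended on which H3K4me3 and CTCF peaks removed a region. With only the stronger 50% of both lists removing regions, 13.5% of all genes had a start inside, and with 50% cover needed, 27.5%. With 1 start per gene it was 4.19%. The same alternatives, added for the genes without H3K4me3 after the data were seen, gave 12.3%, 14.4% and 9.65% beside their 11.8%.

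Genes of embryonic and denervated muscle were among them. Of the 13 in that list, 7 had a start inside (53.8%, exact 95% interval 25.1 to 80.8%), beside 7.33% of all genes, and 5 of the 8 without H3K4me3 did, beside 11.8%. Those reported here are Actc1, the cardiac alpha-actin of developing muscle, the receptor subunits Chrna1 and Chrnd, Dlk1, an inhibitor of fat cell formation, the atrial light chain Myl4, and Tnnt2. Single genes from here on, beyond those above, were named after their values were seen. Chrna1 lay in a primed region of 3302 bases (chr2:73577356-73580657), Tnnt2 in one of 2939 (chr1:135833755-135836693) and Actc1 in one of 5429 (chr2:114049369-114054797). Chrnd lay in one of 519 bases and Dlk1 in one of 441. Myl4 had H3K4me3 within 1 kb of a start, and Actc1, Chrna1, Chrnd, Dlk1 and Tnnt2 did not.

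Other lists had a few such genes, to be read beside 7.33% of all genes, which for the limb (7.69%) and atrophy (5.88%) lists is close to the list's own share. At the neuromuscular junction, 3 of 12 had a start inside: Chrne (1944 bases, chr11:70618457-70620400), Colq, the collagen tail that anchors acetylcholinesterase, and Utrn, the dystrophin relative utrophin. Of the slow sarcomere, 2 of 11 did, the calcium store protein Casq2 and the regulatory light chain Myl2. Of the satellite cell genes, 2 of 13 did, Myf5 and the calcitonin receptor Calcr, a mark of quiescence, and of the myogenic factors, 2 of 15, Mef2c and Mymk, the fusogen myomaker. Pitx1 and Tbx4, the hindlimb factors, were the 2 of 26 limb and mesoderm patterning factors. Of the fibro-adipogenic and fibroblast genes 2 of 14 did, Pi16 and Tcf7l2, and of the atrophy genes 1 of 17, the autophagy receptor Sqstm1.

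None of the 22 fast or common sarcomere genes had a start inside, with an exact upper limit of 15.4%, and 20 of these carried H3K4me3, which the rule removes. The GR targets, the fatty acid, glucose and housekeeping lists had none either, and H3K4me3 lay at every one of their genes. That does not hold for the immune, adipocyte, Schwann and liver lists, where 8, 6, 4 and 12 genes lacked H3K4me3. None of these had a start inside, beside 11.8% of all genes without H3K4me3, a low share for lists this short. Endothelial genes had none of 11, of which 1 lacked H3K4me3. Olfactory receptors had 2 of 1133 (0.177%), and both were among the 1131 without H3K4me3.

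Neuron genes had the highest share of the 20 lists, with an interval that overlaps that of the embryonic and denervation-induced genes. A start lay inside a primed region in 7 of 11 (63.6%, exact 95% interval 30.8 to 89.1%), beside 7.33% of all genes. It did so in 7 of the 10 without H3K4me3, beside 11.8% of all such genes. Of these 10, 7 had a start rich in CG dinucleotides, and they are set beside all genes of that kind below. The 7 genes with a start inside were Gad1 and Gad2, the GABA-forming enzymes, Elavl3 and Rbfox3, RNA-binding proteins of neurons, Nefl, a neurofilament, and Syn1 and Syt1 of synaptic vesicles. The regions ran from 1050 bases at Syn1 to 3765 bases at Gad2. The other 4 were Snap25, Slc17a7, Neurod1 and Stmn2, of which Slc17a7 carried H3K4me3. H3K4me3 lay within 1 kb of a start in 1 of the 11 genes and Pol2 in 0, and the part that nuclei of nerve cells could have in these regions was not tested.

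Base composition at these starts is given for named genes that were chosen after their values were seen, with no test. In the 500 bases around a start, a start was called CpG-rich where GC was above 50% and the observed over expected ratio of CG dinucleotides was above 0.6. Of the neuron genes with a start inside, 6 of 7 were CpG-rich, with ratios of 0.88 at Syn1, 0.96 at Nefl and 0.62 at Gad2, and Syt1 was not, at 0.33. Of the 5 embryonic and denervation-induced genes without H3K4me3, only Dlk1 was, at 0.97. Chrna1 had a ratio of 0.27, Tnnt2 0.11 and Chrnd 0.14. The junction gene Chrne stood at 0.05 and the fusogen gene Mymk at 0.14. Calcr of satellite cells, at 0.67, and the hindlimb factor gene Pitx1, at 0.77, were CpG-rich like the neuron genes. CAGCTG occurred in that window at 4 of the 5 embryonic and denervation-induced genes without H3K4me3, with 2 matches at Chrna1 and at 1 Tnnt2 start, and at 3 of the 7 neuron genes, Syt1, Elavl3 and Rbfox3. It occurred at Chrne and Mymk, and not at Dlk1, Colq, Mef2c, Myf5 or Calcr. Beside these counts, 34.7% of the 1660 starts inside primed regions in genes without H3K4me3 held CAGCTG in the 500 bases, and 34.96% of the 861 in genes with it. These shares are per start, whereas the counts are of genes with a match at any start inside, so the units differ. In the shorter RefSeq promoters of 300 bases, like those printed above, 16.4% of 32619 hold it.

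Among all genes without H3K4me3, the share with a start inside was set against the composition of the starts. Of the 746 with a CpG-rich start, 358 (47.99%, exact 95% interval 44.4 to 51.6%) had a start inside a primed region, against 626 of 7614 (8.22%, 7.61 to 8.86%) of those with no CpG-rich start. Most genes with a start inside were thus of the second kind, 626 of 984. Under the 3 alternatives added after the data were seen the 2 shares were 40.1 to 55.1% and 6.67 to 10.4%. Among genes with H3K4me3 the shares were 4.71% of 11225 CpG-rich and 3.65% of 2085 others, again under a rule that removes regions with that mark. Counting regions within 25 kb of a start, a primed one was present in 72.0% of the CpG-rich genes without H3K4me3 and in 36.7% of the others. In the neuron list, 7 of the 10 genes without H3K4me3 had a CpG-rich start. Of these, 6 had a start inside, to be read beside the 47.99% of all such genes. None of the immune, adipocyte, Schwann and liver genes without H3K4me3 had a CpG-rich start. Their lack of starts inside is to be read beside the 8.22%.

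**Figure D4:**
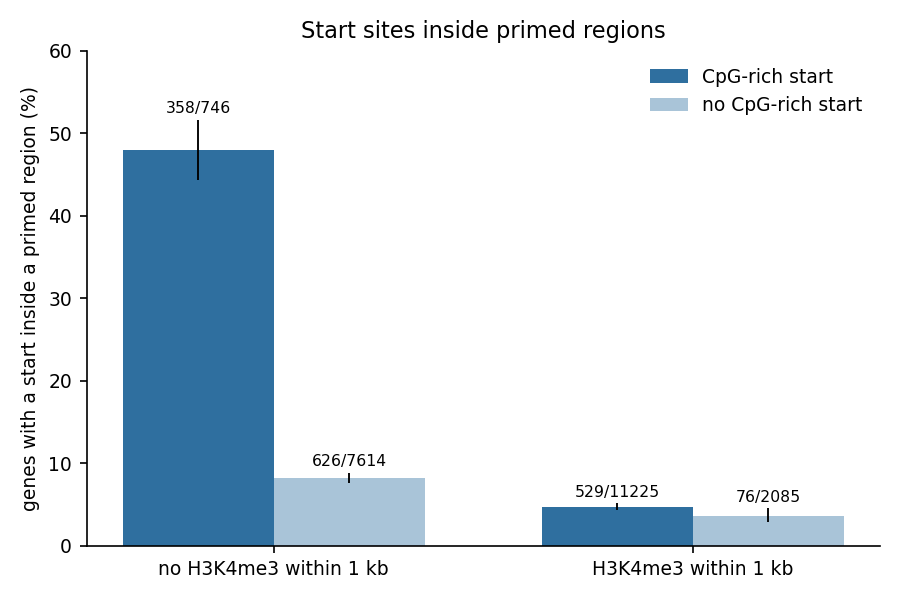
Share of protein-coding genes (in %) with a start inside a primed region, by H3K4me3 within 1 kb of a start and by whether a start was CpG-rich. Bars start at 0, lines are exact 95% intervals and numbers are genes; the bar of 47.99% for CpG-rich genes without H3K4me3 stands above the other 3.

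Away from starts, primed regions were not CpG-rich. Their central 500 bases had a median GC content of 47.0%, with quartiles of 43 and 51%, against 46.8% in H3K27ac regions and 50.6% in regions with H3K4me3. In windows 5 kb outside primed regions it was 44.0%, and in the genome 41.8%. CpG-rich centres made up 1.55% of primed regions, 0.218% of H3K27ac regions and 26.2% of regions with H3K4me3. Over 1 kb from a start they made up 0.819% of primed regions and 0.162% of H3K27ac regions. Repeats took a mean of 17.4% of the central bases in primed regions and 18.7% in H3K27ac regions, against 28.7% in the windows outside and 34.3% of the genome. Reads in repeats map poorly, and the part of mappability in this difference was not tested.

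Motif shares were read in the central 500 bases of each region, beside H3K27ac regions and the peak-free windows 5 kb outside. CAGCTG occurred in 30.1% of the 48907 central windows of 500 bases (exact 95% interval 29.7 to 30.5%) and in 29.8% of H3K27ac windows (28.7 to 30.9%), against 24.4% of H3K4me3 windows and 20.1% of the windows 5 kb outside (19.8 to 20.4%). Motifs were searched on both strands without a mismatch, and some windows outside overlap each other where members are close. Windows richer in GC hold more matches of such letters, so the comparison was repeated at like GC. From 45 to 50% GC the shares were 30.9% for primed, 30.5% for H3K27ac and 24.5% outside, and from 30 to 40% GC they were 14.9% for primed, 15.8% for H3K27ac and 10.9% outside. The order of primed above outside held in all 5 GC steps. At like width the shares of primed and H3K27ac windows did not always match: from 2000 to 4000 bases CAGCTG was in 26.97% of primed windows (26.01 to 27.9%) and 31.5% of H3K27ac windows (29.6 to 33.4%), and from 500 to 1000 bases in 31.8% of primed (31.01 to 32.6%) and 31.3% of H3K27ac windows (26.7 to 36.2%). Along the region, CAGCTG stood at 0.784 per kb beside the midpoint of primed regions, where mean GC was 47.1%, and at 0.505 per kb 1950 bases before it, where mean GC was 44.8%.

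The other motifs varied in how far they differed from the windows outside. The NFI half-site TTGGCA occurred in 29.8% of primed windows, 28.8% of H3K27ac windows and 22.3% outside. The MEF2 site CTAAAAATA occurred in 2.07% of primed windows, 2.43% of H3K27ac windows and 1.12% outside. The shorter MEF2 core TAAAAATA was in 8.34% of primed windows, 8.99% of H3K27ac windows and 8.40% outside, while at 45 to 50% GC it was in 6.61% of primed windows, 7.94% of H3K27ac windows and 4.44% outside. At like width the order of the MEF2 site was not constant. The largest gap was in regions of 1000 to 2000 bases, with 2.21% of primed windows (1.98 to 2.46%) and 4.19% of H3K27ac windows (3.14 to 5.47%). From 2000 to 4000 bases the shares were 1.77% of primed and 2.54% of H3K27ac windows. The order was the reverse below 1000 bases and from 4000 bases, with 2.295% of primed and 1.83% of H3K27ac windows from 500 to 1000 bases. Outside the step of 1000 to 2000 bases the intervals overlapped. The ETS site CAGGAAG was in 20.9% of primed windows, 20.96% of H3K27ac windows and 17.4% outside. At 45 to 50% GC it was in 22.0% of primed windows, 21.1% of H3K27ac windows and 20.6% outside, and at 55 to 65% GC in 26.6% of primed windows, 31.5% of H3K27ac windows and 27% outside. Forkhead sites, TGTTTAC, were in 7.10% of primed windows, 7.65% of H3K27ac windows and 6.98% outside, and STAT sites in 15.7% of primed windows, 15.3% of H3K27ac windows and 15.3% outside. The TEAD site GGAATG was in 26.2% of primed windows, 26.3% of H3K27ac windows and 24.4% outside. AP-1, here TGAGTCA, the motif of Fos and Jun, was in 10.4% of primed windows (10.1 to 10.7%), in 11.9% of H3K27ac windows (11.2 to 12.8%) and in 8.32% outside. At 50 to 55% GC the AP-1 share was 11.1% in primed windows (10.5 to 11.7%), 13.9% in H3K27ac windows (12.2 to 15.8%) and 8.64% outside. At 45 to 50% GC it was 11.4% in primed windows (10.9 to 11.9%), 11.3% in H3K27ac windows (9.94 to 12.7%) and 9.43% outside. At 55 to 65% GC it was 8.93% in primed (8.09 to 9.83%) and 15.28% in H3K27ac windows (12.07 to 18.97%). Below 45% GC the H3K27ac share was again the higher, with overlapping intervals. By width it was the higher in every step. From 1000 to 2000 bases AP-1 was in 10.39% of primed and 14.38% of H3K27ac windows. Intervals were apart there and from 2000 to 4000 bases only.

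Some motifs were rarer in primed windows than outside. The GATA site AGATAA was in 23.1% of primed windows, 23.0% of H3K27ac windows and 26.8% outside, and the homeobox core TAATTA in 11.7% of primed windows, 11.7% of H3K27ac windows and 14.1% outside. RUNX sites, TGTGGTT, were in 10.97% of primed windows, 11.66% of H3K27ac windows and 12.80% outside. At 45 to 50% GC the RUNX share was 11.5% in primed windows, 11.2% in H3K27ac windows and 12.4% outside, and GATA and homeobox sites were not compared at like GC. The SP/KLF box GGGCGG was in 10.0% of primed windows, 8.99% of H3K27ac windows and 5.45% outside, and in 33.7% of H3K4me3 windows. GR half-sites, AGAACA, were about as common in primed windows (38.2%) as outside (38.9%), and in 39.5% of H3K27ac windows. At like GC the primed share was slightly above the outside one in every step. From 40 to 45% GC it was 41.8% (40.9 to 42.7%) in primed windows, 44.1% in H3K27ac windows and 40.1% (39.5 to 40.7%) outside. In the other steps the primed and outside intervals overlapped. The full palindrome of GR, AGAACA and its reverse complement with 3 bases between, was in 4 of 48907 primed windows and 6 of 3651 windows of regions with GR, Pol2 or CTCF only. The rule removed regions with a GR or CTCF peak, so this and the CTCF core (5.89% of primed windows against 8.90%) bear on how members were chosen.

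**Figure D5:**
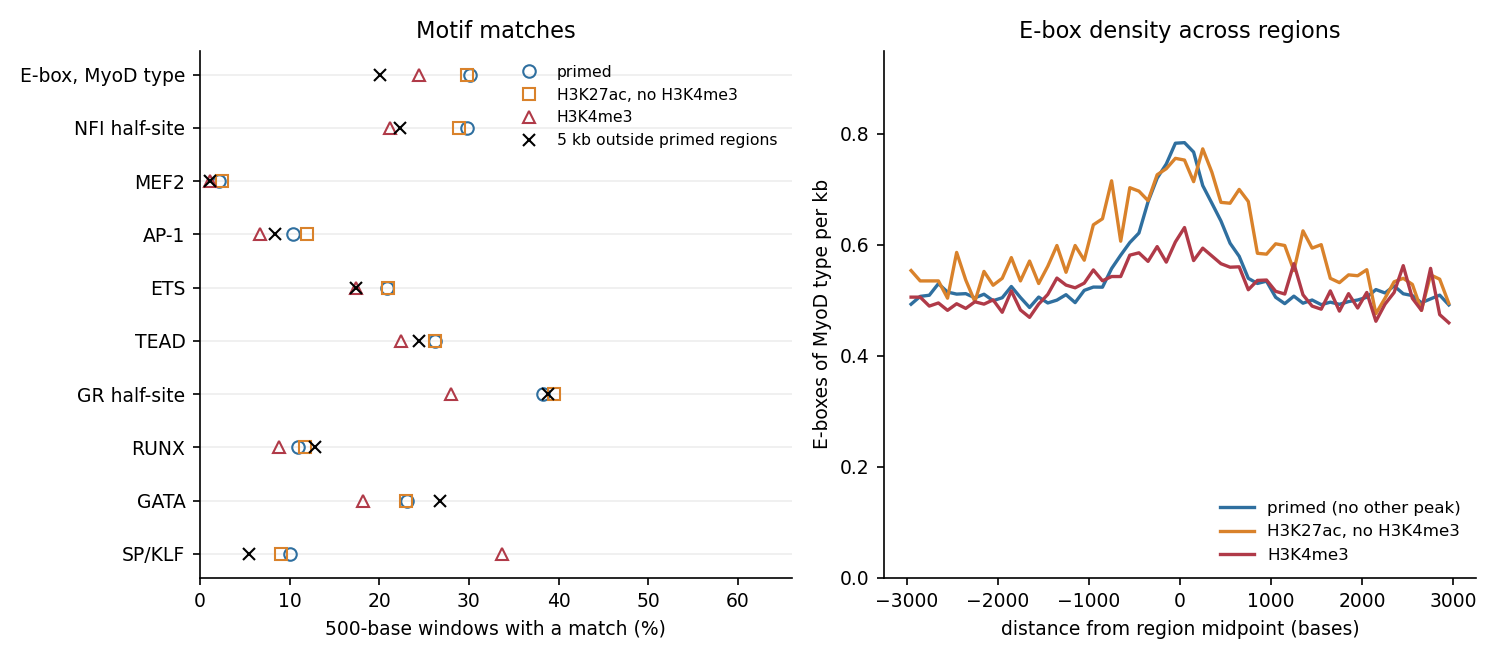
Left, share of central 500-base windows (in %) with a match to each of 10 motifs in primed, H3K27ac and H3K4me3 regions and 5 kb outside primed regions. Right, matches of the MyoD-type E-box per kb in steps of 100 bases by distance from the region midpoint; the primed curve rises to 0.784 at the midpoint.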

How the data were processed

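ChIP-seq of skeletal muscle nuclei was deposited as peak lists. Per the submitters' processing notes, bcl2fastq 2.17.1.14, Bowtie 1.0.0, MACS2 and build mm10 were used. No settings for them are given in the sources used here. The authors deposited positions for all 6 lists and, for CTCF and H3K4me3, a −log10 q-value, which was used in 1 alternative. Depth is unknown. Other columns were not used.

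Overlap meant 1 shared base. Genes and places came from GENCODE annotation of GRCm38, the same build, and sequence came from RefSeq GRCm38. Starts were those of all protein-coding transcripts of protein-coding genes, without the non-coding transcripts of these genes. A midpoint within 1 kb of a start was placed there, then in an exon, intron or intergenic sequence. Shares have exact Clopper-Pearson 95% intervals (scipy 1.17.1), which cover the counting error of regions, genes or windows only, taken as independent. Overlap, start and motif functions were tested on simulated data. The members, the 20 gene lists, the 28 motifs and the rule for named genes were chosen with earlier results of these data known. The rule named 22 listed genes, the 10 widest members, the 10 genes with most members, the 5 longest chains, and up to 2 genes per list with most members, of which some are given. A gene named by the rule and a list member are not reported here. Alternatives changed the overlap, the peaks that remove regions, the windows and the start sites.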

Additional observations from a re-analysis of the deposited data

How the results depend on the processing

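No paired analysis was possible because there is 1 library per antibody, and no library could be left out. Of 55 alternatives over 12 results, 10 stayed within the interval of the reported value, or within 1.5 times for the count of regions, which was 46465 to 68284. With 50% cover needed to remove a region, the median width was 1297 bases, 90.0% lay over 1 kb from a start, 52.2% lay in introns, 73.5% of genes had a region within 25 kb, 27.5% had a start inside, median GC was 47.2% and 29.2% of windows had CAGCTG. With regions within 1 kb of a peak removed, 96.1% lay over 1 kb from a start, 57.1% in introns, 59.97% of genes had one near and 30.5% of windows had CAGCTG. With the widest 50% of members the values were 96.2% over 1 kb, 61.9% in introns, 25.3% within 5 kb of another peak, 44.4% of genes near, 4.77% with a start inside, GC 46.4% and CAGCTG 28.2%. With only the stronger CTCF and H3K4me3 peaks removing regions, the median width was 1075 bases, 92.8% lay over 1 kb from a start, 54.4% in introns, 21.1% within 5 kb, 67.7% of genes had one near, 13.5% a start inside, and GC was 47.2%. With 1 start per gene, 97.2% lay over 1 kb away, 61.2% of genes had one near and 4.19% a start inside, and with starts of all annotated genes 89.5% lay over 1 kb away. Wider and narrower windows gave 84.4% over 5 kb from a start, 5.00% and 70.8% within 1 kb and 25 kb of another peak, and 44.1% and 81.7% of genes with a region within 10 kb and 100 kb. Central 200 and 1000 bases had GC of 47.5% and 46.5% and CAGCTG in 13.7% and 49.0%, and whole regions had GC of 47.1%. For genes without H3K4me3, a start lay inside in 14.4% with 50% cover needed and in 9.65% with 1 start per gene, where the start was CpG-rich in 55.1% and 40.1%, and where it was not in 10.4% and 6.67%. These alternatives were chosen after seeing the data. The causes were not tested, except that a wider window holds more by its construction. Peaks missed at an unknown depth, and single libraries, limit every share.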
